A study of Mus musculus with 6 samples.

Results

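Brown adipose tissue makes heat when sympathetic nerves release noradrenaline onto it. Noradrenaline binds beta-adrenergic receptors on brown adipocytes, and these act through the stimulatory G protein Gs to switch on adenylyl cyclase. The cAMP that results frees the catalytic subunits of protein kinase A (PKA) from their regulatory subunits, which starts lipolysis and raises transcription of heat-producing genes such as Ucp1. Receptors of the alpha type 2 class work through Gi and lower cAMP, those of the alpha type 1 class raise calcium through Gq, and phosphodiesterases break cAMP down.

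Transcripts of 9 genes of this pathway, chosen by name, are described among the 45320 Ensembl genes of the tables. They are the receptors Adrb1, Adrb3, Adra1a, Adra1b and Adra2a, the Gs alpha subunit gene Gnas, the adenylyl cyclase Adcy3, the PKA regulatory subunit Prkar2b and the phosphodiesterase Pde3b. All 9 had a matching identifier, and 7 of them reached the mean of 1 FPKM (a count of fragments scaled to transcript length and library depth) that a gene needed to be tested. Adra1b and Adra2a fell below it and are given by value.

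The tissue came from C57BL/6 mice that received a calorie-rich diet, high in sugar and fat, from 4 weeks of age. After 4 weeks on it, 1 group went on with the diet plus RO5508887, a small molecule made to block the protease BACE1 and still experimental (treated samples 17, 33 and 35), and the other with the diet alone (untreated samples 13, 14 and 15). No dose or duration of the inhibitor is given in the labels, and both groups were fed the fat-rich diet. Samples 33 and 35 held identical values for all 45320 genes, with no difference at all between them. They count here as 1 sample, treated 33/35, which left 2 treated and 3 untreated libraries. To which of these samples the values belong is not known. Nothing says that the samples came from separate animals, so p-values reflect no more than sample-to-sample spread, possibly of technical origin.

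Libraries differed in skeletal muscle transcripts in a way the groups did not account for. The 28 muscle markers summed to 15842 FPKM in treated 17 and 6886 FPKM in treated 33/35, against 172, 37535 and 160 FPKM in untreated 13, 14 and 15. Ckm, the muscle creatine kinase, was at 1262 and 531 FPKM in treated 17 and 33/35, and at 2.25, 2733 and 1.46 FPKM in untreated 13, 14 and 15. Of the markers, 27 were highest in untreated 14, and the other one, Myh4, was listed at 0 in untreated 14 and both treated libraries. Ucp1, a brown adipocyte marker, was found in every library. It was at 1119 and 1321 FPKM in treated 17 and 33/35, and at 1837, 227 and 1912 FPKM in untreated 13, 14 and 15. How much of each sample was brown fat is not known. The 10 general adipocyte markers summed to 5708 and 6730 FPKM in the treated libraries, and to 7079, 3172 and 6947 FPKM in the untreated ones in the same order. Brown adipocyte markers summed to 4571 and 5307 FPKM in treated 17 and 33/35, and to 5740, 2536 and 6448 FPKM in untreated 13, 14 and 15. Of these 10 genes, 7 were lowest and 1, Fabp3, was highest in untreated 14, so the sum mixes unlike genes. Cidea was at 767 and 903 FPKM in treated 17 and 33/35, and at 991, 124 and 1066 FPKM in untreated 13, 14 and 15. Fabp3 was at 752 and 836 FPKM, and at 594, 995 and 930 FPKM, in the same order. Marker sums of the other cell types ran from 0.893 to 1.46 FPKM in treated and from 0.411 to 2.42 FPKM in untreated libraries for sympathetic nerve, where the enzyme gene Dbh was at 0 in all 5. For vascular smooth muscle, whose list holds the muscle gene Des, they were 234 to 446 FPKM in treated and 96.8 to 982 FPKM in untreated libraries. Endothelial markers summed to 220 to 227 FPKM in treated and 189 to 238 FPKM in untreated libraries, and macrophage markers to 104 to 140 FPKM in treated and 90.0 to 143 FPKM in untreated ones. The part of these differences in the results that follow was not tested.

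Adrb3 was by far the most abundant of the 8 adrenergic receptor transcripts analysed here, and 4 of the 8 averaged above 1 FPKM. Adrb3 encodes the beta-receptor subtype typical of adipocytes (chromosome 8, 27225776 to 27250616, minus strand, GRCm38). Gm45470, annotated antisense to it, is not analysed here. Adrb3 was measured at 126 and 131 FPKM in treated 17 and 33/35, and at 229, 59.6 and 138 FPKM in untreated 13, 14 and 15. Treated values were close to one another and lay inside the wide untreated range, with untreated 13 highest and untreated 14 lowest. Adrb3 took 77.5% and 68.1% of the FPKM summed over these 8 genes in treated 17 and 33/35, and 83.7%, 86.3% and 71.9% in untreated 13, 14 and 15.

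Next came the alpha type 1 receptor Adra1a (chromosome 14, 66635251 to 66771168, plus strand), which couples to Gq. Its level was 17.6 and 33.1 FPKM in treated 17 and 33/35, and 26.1, 4.17 and 36.7 FPKM in untreated 13, 14 and 15. The groups overlapped, and untreated 14 again had the lowest value. Adra1a made up 73.2% of the alpha receptor sum in each treated library, and 78.8%, 54.5% and 80.6% in untreated 13, 14 and 15. Most of the remainder was Adra1d, another alpha type 1 receptor, at 5.96 and 11.9 FPKM in treated 17 and 33/35, and 6.47, 2.37 and 8.28 FPKM in untreated 13, 14 and 15.

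Adrb1 (chromosome 19, 56722199 to 56733113, plus strand) encodes the beta receptor best known from the heart, which in brown fat of mice is also found on precursor cells. Adrb1 was measured at 12.6 and 16.2 FPKM in treated 17 and 33/35, and at 11.4, 1.79 and 8.34 FPKM in untreated 13, 14 and 15. Both treated values exceeded all untreated ones, as they did for 5.5% of all tested genes, and untreated 14 was far below the rest.

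The remaining 4 receptor genes were near the lower end of what the tables hold. Adra1b (chromosome 11, 43774606 to 43901210, minus strand), a Gq-coupled receptor, was at 0.0996 and 0.105 FPKM in treated 17 and 33/35, and at 0.178, 0.374 and 0.202 FPKM in untreated 13, 14 and 15. Both treated values were below all untreated values, but without read counts such low values have no known precision. Adra2a (chromosome 19, 54044151 to 54048982, plus strand), a Gi-coupled receptor, was at 0.0989 and 0.0697 FPKM in treated 17 and 33/35, and at 0.0668, 0.316 and 0 FPKM in untreated 13, 14 and 15. A listed 0 can be a failed estimate and does not show absence. Adra2b and Adra2c stayed between 0.0279 and 0.252 FPKM in all libraries, so no alpha type 2 receptor reached 1 FPKM in any of them.

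**Figure D1:**
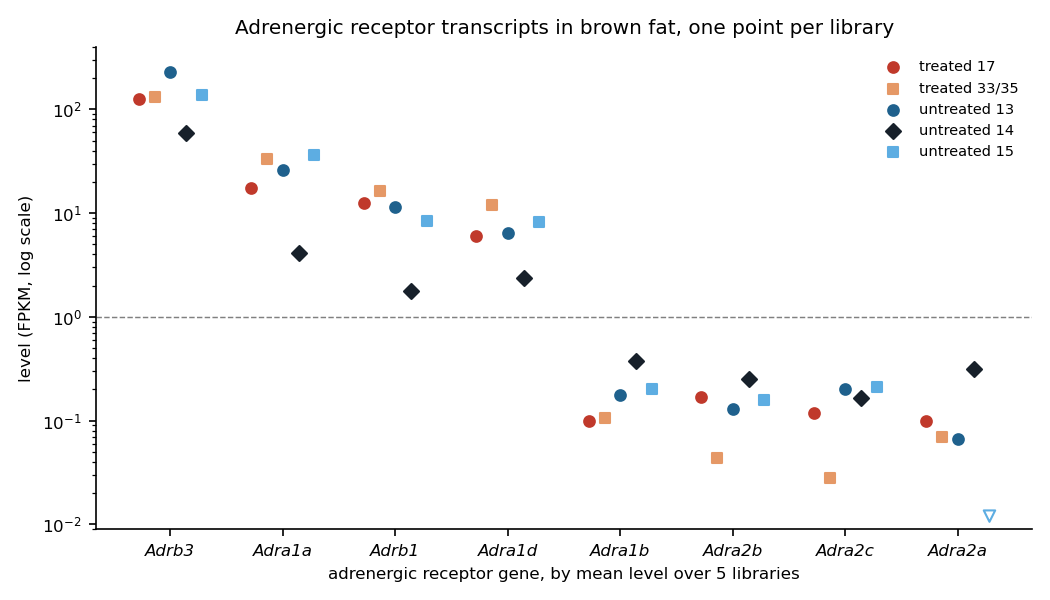
Level of each of 8 adrenergic receptor genes (FPKM, log scale) with 1 point per library, in the order of their mean level. The dashed line is 1 FPKM and the open triangle marks a value listed at 0. Adrb3 stands at 59.6 to 229 FPKM, above the other 7 receptors in each library.

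In the order of mean levels, Adrb3 (137 FPKM over the 5 libraries) was above Adra1a (23.5 FPKM) and Adra1a above Adrb1 (10.1 FPKM) in 5 of 5 libraries. Adrb1 was above Adra1d (6.99 FPKM) in 4 libraries and below it in untreated 14 (1.79 against 2.37 FPKM), so these neighbours were not separated. Adra1d was above Adra1b (0.192 FPKM) in 5 of 5 libraries. Among the lowest 4, from Adra1b to Adra2a (0.110 FPKM), no gene was separated from its neighbour in the order, although Adra1b was above Adra2a in 5 of 5 libraries. FPKM are scaled by transcript length, so levels of different genes can be set side by side, within the limits of the authors' length model.

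The level of Adrb1 relative to Adrb3 varied between the libraries. The Adrb1 level was 9.98% and 12.4% of the Adrb3 level in treated 17 and 33/35, against 4.97%, 2.996% and 6.05% in untreated 13, 14 and 15. Both treated libraries thus had more Adrb1 per Adrb3 than any untreated library. Over all 5 libraries the log2 ratio of Adrb3 to Adrb1 was 3.96 ± 0.81 (SD, n = 5), with Adrb3 higher in 5 of 5 (exact sign-flip permutation test, two-sided p = 0.0625, the smallest that 5 libraries allow). Between the groups the log2 ratio averaged 3.17 in treated and 4.48 in untreated libraries, a difference of -1.31 (exact permutation test, two-sided p = 0.1, the smallest that 2 libraries against 3 allow). Without untreated 14 the difference was -1.02. The comparison of this ratio between the groups was chosen after its values were seen, and the part of muscle content in it was not tested.

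**Figure D2:**
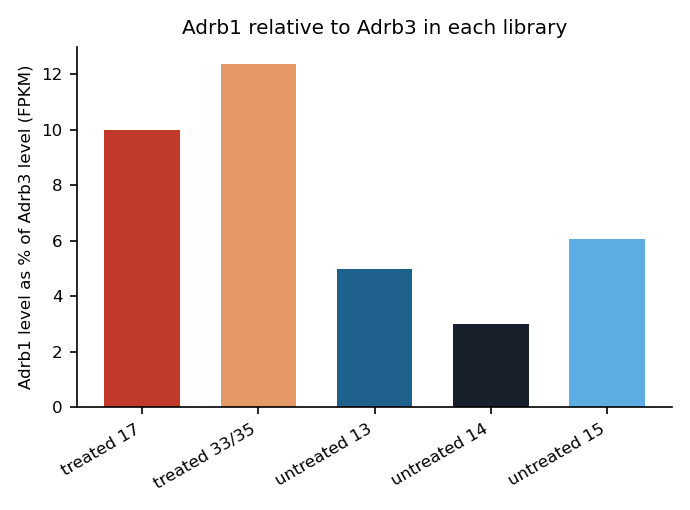
Adrb1 level as a percentage of the Adrb3 level (both in FPKM) in each library, as bars that start at 0. The treated libraries stand at 9.98% and 12.4%, and the untreated libraries at 2.996% to 6.05%.

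Among the 4 members that act behind the receptors, Gnas had the highest level in every library and Adcy3 the lowest. Gnas (chromosome 2, 174284320 to 174346744, plus strand), an imprinted gene whose products include the Gs alpha subunit, was measured at 731 and 1058 FPKM in treated 17 and 33/35, and at 954, 532 and 1234 FPKM in untreated 13, 14 and 15. The groups overlapped and untreated 14 was lowest. It made up at least 99.8% of the sum of Gnas and Gnal, the related olfactory G protein gene, in every library. The level of Gnas is uncertain, because Gm20721, annotated as protein-coding on the opposite strand over part of the same interval, was listed at 661 and 929 FPKM in treated 17 and 33/35, and 846, 504 and 1075 FPKM in untreated 13, 14 and 15. The Gnas value was 1.06 to 1.15 times that of Gm20721 in every library. The sources do not say whether reads were assigned by strand, so the reads of these genes cannot be told apart here.

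Adcy3 (chromosome 12, 4133103 to 4213525, plus strand), an adenylyl cyclase of the plasma membrane that is tied to body weight in mice and humans, was measured at 15.6 and 20.1 FPKM in treated 17 and 33/35. In untreated 13, 14 and 15 it was at 18.6, 2.95 and 21.9 FPKM. Treated values were within the untreated range, and untreated 14 stood far below the other 4 libraries. Adcy6, another membrane cyclase, was more abundant than Adcy3 in 5 of 5 libraries, with 34.2 and 43.2 FPKM in treated 17 and 33/35, and 42.6, 18.0 and 47.2 FPKM in untreated 13, 14 and 15. Of the FPKM summed over the 10 cyclases, Adcy3 took 20.4% and 22.5% in treated 17 and 33/35, and 22.4%, 4.66% and 24.8% in untreated 13, 14 and 15. Cenpo, a centromere protein gene on the opposite strand, overlaps Adcy3 and was listed at 2.19 to 8.81 FPKM, so reads of these genes may likewise be mixed.

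Prkar2b (chromosome 12, 31958476 to 32061296, minus strand) encodes the type II beta regulatory subunit of PKA, the form that prevails in adipocytes. Prkar2b was measured at 419 and 467 FPKM in treated 17 and 33/35, and at 499, 103 and 526 FPKM in untreated 13, 14 and 15. Both treated libraries were a little below untreated 13 and 15 and far above untreated 14. It was the most abundant of the 4 regulatory subunit genes in 5 of 5 libraries, with 79.2% and 82.3% of their sum in treated 17 and 33/35 and 84.0%, 41.8% and 84.8% in untreated 13, 14 and 15. Prkar1a, the type I alpha subunit found in most cells, hardly varied, with 79.5 and 83.0 FPKM in treated 17 and 33/35, and 82.3, 84.9 and 83.6 FPKM in untreated 13, 14 and 15. Prkar2a, the type II alpha subunit, followed the order of the muscle markers, with 29.1 and 16.1 FPKM in treated 17 and 33/35, and 11.2, 57.6 and 9.43 FPKM in untreated 13, 14 and 15.

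Pde3b (chromosome 7, 114415281 to 114539251, plus strand) encodes the phosphodiesterase through which insulin lowers cAMP in adipocytes. It was measured at 46.7 and 63.6 FPKM in treated 17 and 33/35, and at 64.5, 18.9 and 63.3 FPKM in untreated 13, 14 and 15. Treated 33/35 was level with untreated 13 and 15, treated 17 was below them, and untreated 14 was lowest. Pde3b was above Pde4d, the next phosphodiesterase gene by mean level in FPKM, in 4 of 5 libraries, and in untreated 14 the order was turned round. The Pde3b share of the FPKM summed over the 15 phosphodiesterase genes with an identifier was 26.6% and 32.3% in treated 17 and 33/35, and 35.3%, 11.2% and 35.0% in untreated 13, 14 and 15.

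**Figure D3:**
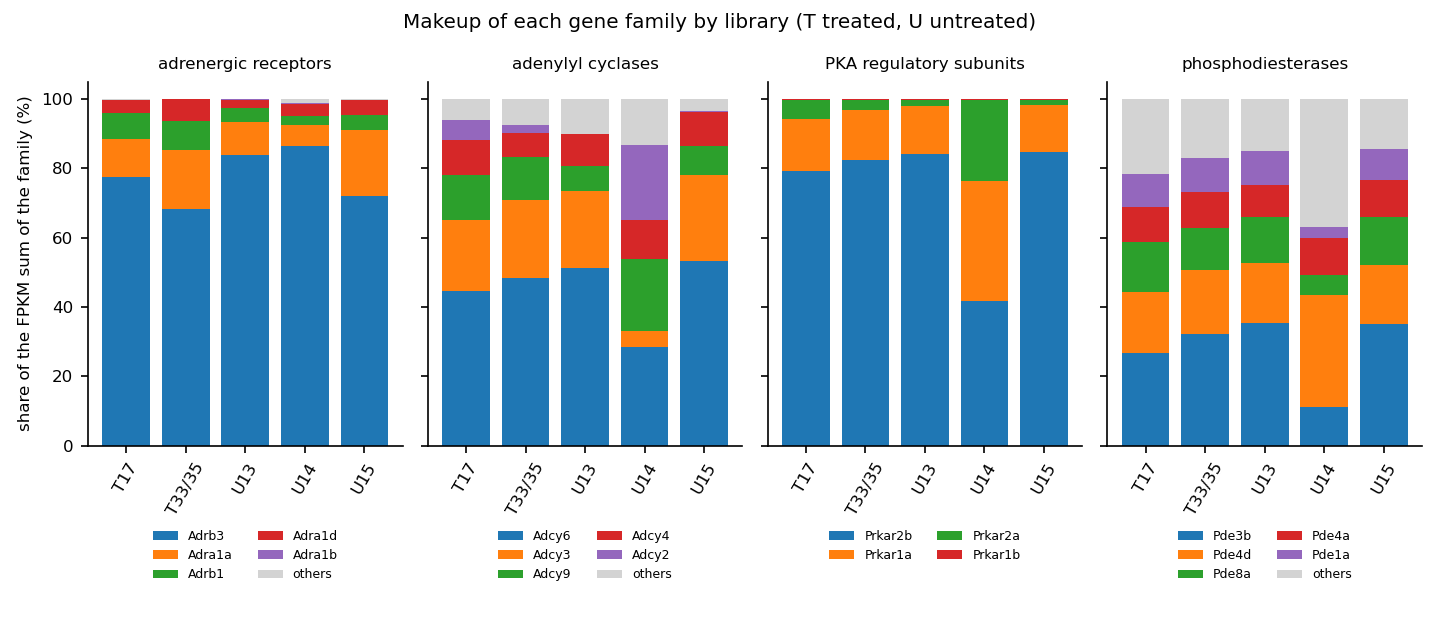
Share of the FPKM sum of each gene family taken by its 5 leading genes or fewer in each library (T treated, U untreated). Prkar2b takes 79.2% to 84.8% of the regulatory subunit sum in 4 libraries and 41.8% in untreated 14.

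All 7 tested genes were lowest in untreated 14, as were 43.6% of the 13527 genes tested. The mean of the other 4 libraries was 6.80 times the untreated 14 level for both Adrb1 and Adra1a, 6.45 times for Adcy3 and 4.63 times for Prkar2b. It was 3.15 times for Pde3b, 2.62 times for Adrb3 and 1.87 times for Gnas, beside a median of 1.07 over all tested genes. In whole tissue, fewer cells of a type and less RNA per cell cannot be told apart. After each value was divided by the adipocyte marker level of its library, the factor was 1.02 for Adrb3, 1.23 for Pde3b and 0.731 for Gnas. It was 2.69 for Adrb1, 2.65 for Adra1a, 2.53 for Adcy3 and 1.82 for Prkar2b, and Ucp1 had 2.65. The marker level here is the median log2 value of 10 general adipocyte genes, of which Slc2a4 is also a muscle gene. These markers did not fall alike. Between untreated 13 and untreated 14, Pparg went from 197 to 33.5 FPKM, Adipoq from 602 to 332 FPKM and Slc2a4 from 181 to 169 FPKM. Adipoq had a factor of 0.602 after the same division, so the factors above carry the scatter of the markers.

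Profiles over the 5 libraries were compared as centred log2(FPKM + 0.5) values by their root mean square distance. Adcy3 and Prkar2b were the closest pair among the tested members, at 0.14, followed by Adra1a and Adcy3 at 0.20. Adrb1 and Adrb3, the beta receptors among them, were at 0.64. The protein-coding genes with the profile most like that of Adrb3 were Xpnpep3 (0.090), Mmp19 (0.10) and Fcor (0.10), but 3566 of the 11693 others lay within 0.5, so a close profile is common here. All 3 were highest in untreated 13 and lowest in untreated 14, as Adrb3 was, which follows from their being picked for likeness to it.

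Promoters of Adrb1, Adcy3 and Prkar2b are shown because these genes had some of the largest gaps between untreated 14 and the other libraries. Of the tested members, Adrb1 alone had both treated values above all untreated ones, as did 5.5% of all tested genes. Each line gives the 250 bases before a RefSeq transcription start on GRCm38.p6, 5′ to 3′ on the strand of the gene, and for Adcy3 and Prkar2b the farther upstream of a pair of listed starts. The windows are chr19:56721867-56722116 (plus), chr12:4133147-4133396 (plus) and chr12:32061278-32061527 (minus). By the gene positions given above, the Adcy3 window lies within its gene and the Prkar2b window overlaps the start of its gene.
Adrb1: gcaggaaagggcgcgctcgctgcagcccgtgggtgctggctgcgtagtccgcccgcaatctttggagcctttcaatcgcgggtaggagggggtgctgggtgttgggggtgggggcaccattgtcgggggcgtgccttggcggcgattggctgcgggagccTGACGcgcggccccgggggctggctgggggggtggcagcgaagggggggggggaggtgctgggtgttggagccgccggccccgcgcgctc
Adcy3: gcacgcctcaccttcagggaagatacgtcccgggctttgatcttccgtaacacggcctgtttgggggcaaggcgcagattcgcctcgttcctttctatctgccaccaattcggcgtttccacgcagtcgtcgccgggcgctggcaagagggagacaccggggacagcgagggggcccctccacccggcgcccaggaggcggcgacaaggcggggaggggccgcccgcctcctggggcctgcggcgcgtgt
Prkar2b: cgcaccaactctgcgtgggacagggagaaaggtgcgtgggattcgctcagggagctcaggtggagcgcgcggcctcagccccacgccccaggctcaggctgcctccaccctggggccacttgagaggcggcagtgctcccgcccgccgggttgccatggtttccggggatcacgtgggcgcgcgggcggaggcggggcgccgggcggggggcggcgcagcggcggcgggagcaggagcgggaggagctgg
Capitals mark TGACG, the core of the cAMP response element, searched on both strands. It occurred in the Adrb1 window with its first base at position -90 from the start, and in neither of the other windows shown. Among member windows not shown, it was in that of Adra2a (-69) and in Gnas windows (-38, -57 and -216). Another Gnas window and those of Adra1b lacked it. Of all 32851 promoter windows of this length, 17.8% held it, and a link between the core and the levels was not tested. The full element TGACGTCA, which contains that core on each strand, was in none of the 3 windows and in 1.55% of all windows. The windows were rich in G and C, with 74.0% for Adrb1, 68.8% for Adcy3 and 75.6% for Prkar2b, beside a median of 52.4% over all windows. A match describes the letters only. Of the 9 genes, 6 had a window, and Adrb3, Adra1a and Pde3b had none.

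No tested member passed the test between treated and untreated libraries. By limma on log2(FPKM + 0.5), with Benjamini-Hochberg adjustment over 13527 genes, 0 of 7 passed an adjusted p of 0.05 and 0 had an unadjusted p under 0.05, where 0.0444% of all genes passed (0.0296% higher, 0.0148% lower) and 0.924% had an unadjusted p under 0.05. Each of the 7 had an adjusted p of 1. All 7 log2 means were higher in the treated group, but Adrb3 and Gnas turned below 0 when the libraries were centred on their medians (-0.053 and -0.072) or on the adipocyte markers (-0.27 and -0.29). The median log2 difference of the 7 was 0.56, beside 0.06 over all genes, and the median of all genes became -0.26 with adipocyte centring. Without untreated 14, every tested member but Adrb1 was below 0, beside a median of 0.0092 over all genes. Of all genes 64.3% had a higher log2 mean in the treated group, and 39.8% with median centring.

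Adrb1 averaged 14.4 ± 2.55 FPKM in treated (SD, n = 2) and 7.17 ± 4.91 FPKM in untreated libraries (SD, n = 3), the largest log2 difference of the 7 at 1.25 (SE 0.77, limma adjusted p = 1). It was the 1 member of 7 with both treated values above all untreated values, as were 5.5% of all tested genes, while 3.18% were below and 8.68% did not overlap in either direction. Without untreated 14 its log2 difference was 0.53 (SE 0.21, limma adjusted p = 0.424), and it kept its direction with each library left out, from 0.53 to 1.72. Without untreated 14, 0 of 7 members passed, where 1.18% of all genes did (1.11% higher, 0.0673% lower).

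Adrb3 averaged 129 ± 3.35 FPKM in treated (SD, n = 2) and 142 ± 84.8 FPKM in untreated libraries (SD, n = 3). Its log2 difference was 0.06 (SE 0.60, limma adjusted p = 1), above 0 although the treated mean in FPKM was the lower one. Without untreated 14 it was -0.46 (SE 0.26, limma adjusted p = 0.549), with both treated values below untreated 13 and 15. Prkar2b had 0.56 (SE 0.81) and, without untreated 14, -0.21 (SE 0.10, limma adjusted p = 0.492), again with both treated values below. Of all tested genes, 25.3% had both treated values above untreated 13 and 15 and 20.8% both below. Of the 7 members, 1 was above, 2 were below and 4 overlapped.

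The other 4 tested members also turned below 0 without untreated 14. Their log2 differences were 0.57 (SE 1.00) for Adra1a, 0.68 (SE 0.90) for Adcy3, 0.35 (SE 0.62) for Pde3b and 0.04 (SE 0.44) for Gnas. Without untreated 14 they were -0.35 (SE 0.35), -0.19 (SE 0.17), -0.23 (SE 0.17) and -0.30 (SE 0.23) in the same order, with limma adjusted p-values of at least 0.64. For 6 of the 7 members the sign of the difference thus changed without untreated 14, the library with the most muscle transcripts, and for Gnas also without treated 33/35 (-0.23). Leaving it out sets untreated libraries with 160 to 172 FPKM of muscle markers against treated libraries with 6886 to 15842 FPKM, so the inhibitor and the muscle content of the samples cannot be told apart there.

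**Figure D4:**
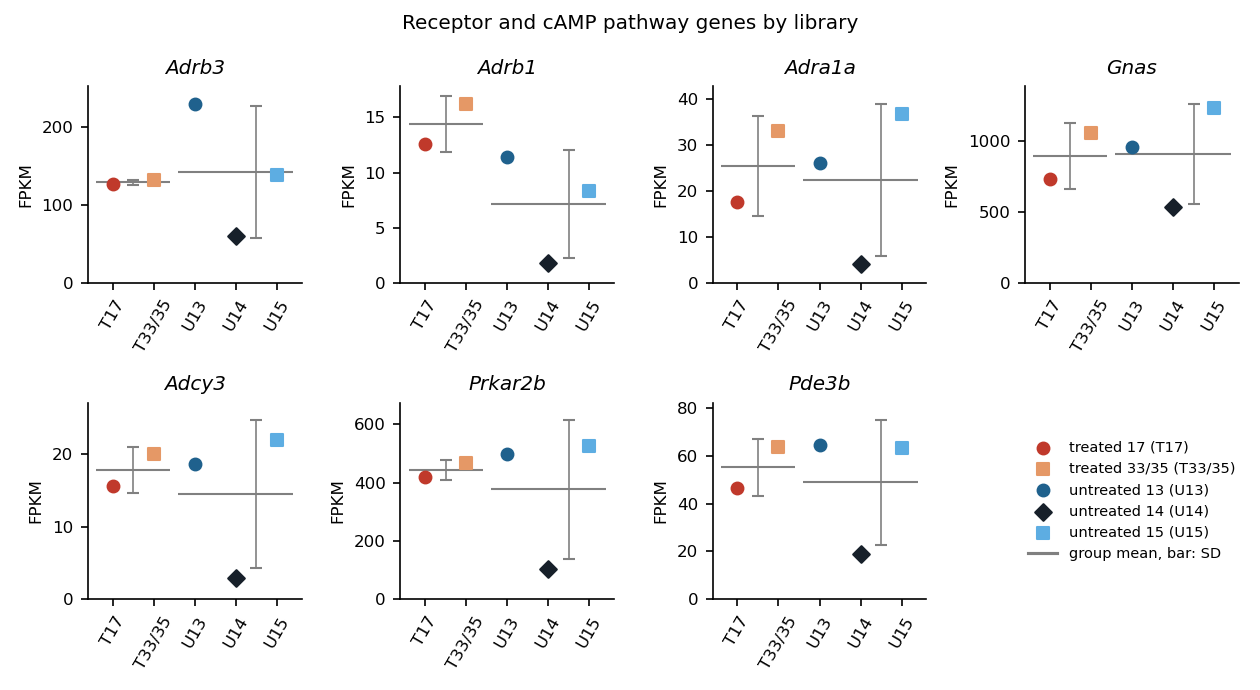
FPKM of the 7 tested members in each library, on linear axes from 0, with group means as lines and SD as bars (2 treated, 3 untreated libraries). Untreated 14 is the lowest point in every panel. Only for Adrb1 do both treated points lie above all untreated points, as for 5.5% of all tested genes.

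**Figure D5:**
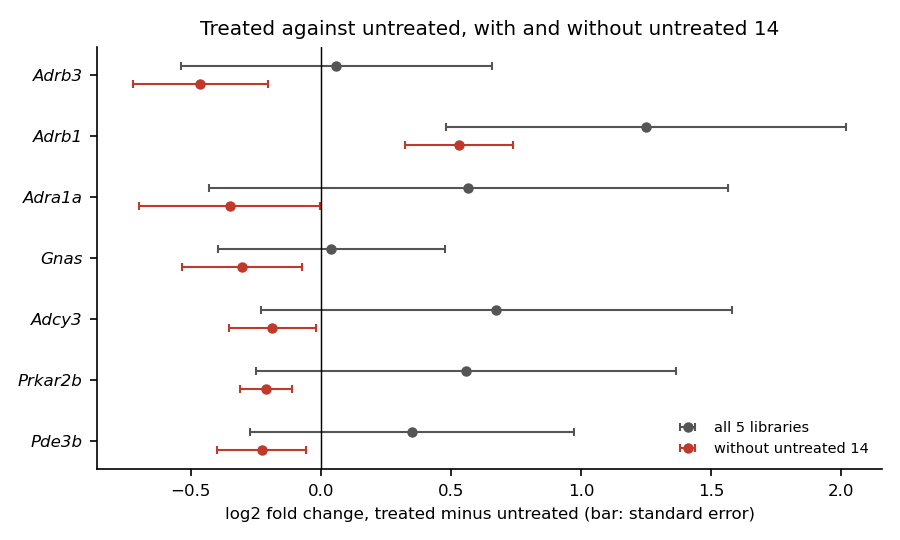
Log2 fold change, treated minus untreated, of the 7 tested members with its standard error, from all 5 libraries and without untreated 14. Adrb1 stays above 0 in both (1.25 and 0.53), and the other 6 change sign.

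None of the wider pathway passed either. Of 119 further genes in 12 lists, 118 had an identifier (Pde2a is not analysed here) and 95 were tested. By limma 0 passed in either direction and 1 had an unadjusted p under 0.05. The log2 mean was higher in the treated group for 68 and lower for 27 of the 95, with a median difference of 0.12, but these signs depended on the scaling. With median centring 50 were higher and 45 lower, and with adipocyte centring 24 were higher and 71 lower. Without untreated 14, where 93 were tested, 45 were higher and 48 lower. Of all tested genes, 64.3% were higher in the fit of all 5 libraries, 39.8% with median centring and 14.3% with adipocyte centring. Without untreated 14 the share of all tested genes was 51.7%. Higher and lower in the lists that follow count signs of the log2 difference in the fit of all 5 libraries, none of which passed, and of the lists with more than 1 tested gene only the 2 cAMP sensors kept all their signs under every scaling run. Both treated values were above all untreated values for 5 of the 95 and below for 2, where 5.5% and 3.18% of all tested genes were.

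Among further adrenergic receptors, Adra1d was tested and had a log2 difference of 0.68 (SE 0.59). Of 10 tested receptors for other hormones that act through Gs or Gi in fat, 8 were higher and 2 lower without passing, and the most abundant was Ptger3, a Gi-coupled prostaglandin receptor, at 34.5 ± 2.65 FPKM in treated (SD, n = 2) and 40.5 ± 19.7 FPKM in untreated libraries (SD, n = 3). Ptger4, a Gs-coupled prostaglandin receptor, had the smallest p of all 95 genes. It was at 2.75 and 6.26 FPKM in treated 17 and 33/35, and at 1.28, 1.37 and 1.05 FPKM in untreated 13, 14 and 15. The groups did not overlap, and untreated 14 was level with the other untreated libraries. Its log2 difference was 1.44 (SE 0.37, limma unadjusted p = 0.0124, adjusted p = 1), and without untreated 14 the limma adjusted p was 0.264.

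Of 16 tested G protein subunits 12 were higher and 4 lower, of 7 adenylyl cyclases 4 and 3, and of 7 PKA subunits and inhibitors 6 and 1, and no gene passed. Gng5, the most abundant of these G protein genes, was at 201 ± 23.7 FPKM in treated (SD, n = 2) and 224 ± 93.2 FPKM in untreated libraries (SD, n = 3), and Gng7, with the smallest p, had a log2 difference of 0.53 (SE 0.46). Among the cyclases Adcy6 had 0.21 (SE 0.47) and Adcy9 0.30 (SE 0.35). Prkaca, the main catalytic subunit of PKA, was at 150 ± 4.13 FPKM in treated (SD, n = 2) and 141 ± 43.7 FPKM in untreated libraries (SD, n = 3). Pkia, an inhibitor of the catalytic subunit that is abundant in muscle, was at 115 and 44.6 FPKM in treated 17 and 33/35, and at 7.86, 274 and 6.02 FPKM in untreated 13, 14 and 15, in the order of the muscle markers.

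Of 8 A-kinase anchoring proteins, which tether PKA, 6 were higher and 2 lower. Akap1, the mitochondrial anchor, was most abundant, with a log2 difference of 0.45 (SE 0.58), and Akap12 had 0.19 (SE 0.18). Of 12 phosphodiesterases 6 were higher and 6 lower, with Pde4d at -0.17 (SE 0.31) and Pde4c at -0.38 (SE 0.29). Both tested cAMP sensors outside PKA had lower log2 means, Rapgef3 at -0.17 (SE 0.17) and Rapgef4 at -0.58 (SE 0.55). Among 8 genes of receptor desensitisation, 7 were higher and 1 lower, and Rgs2, a brake on Gq signalling, was at 35.9 and 67.0 FPKM in treated 17 and 33/35, and 47.5, 6.20 and 22.3 FPKM in untreated 13, 14 and 15.

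Downstream, 9 of 12 CREB family members, coactivators and salt-inducible kinases were higher and 3 lower. Sik2, an adipocyte kinase that PKA inhibits, had a log2 difference of 0.43 (SE 0.67), and Sik1, itself induced by cAMP, was at 10.4 and 20.4 FPKM in treated 17 and 33/35 and at 5.56, 11.1 and 5.95 FPKM in untreated 13, 14 and 15 (0.97, SE 0.43). Of 8 tested cAMP-induced genes of brown fat, 6 were higher and 2 lower. Ucp1 had 0.39 (SE 1.06), and Ppargc1a, with both treated values below all untreated ones, -0.37 (SE 0.18, limma adjusted p = 1). Of 4 tested genes of catecholamine synthesis, uptake and breakdown 3 were higher and 1 lower, with Maob, a monoamine oxidase, at 0.20 (SE 0.34) and Slc22a3, a transporter that takes up noradrenaline, at 0.59 (SE 0.47). The synthesis gene Th reached 0.684 and 0.153 FPKM in treated 17 and 33/35 and 1.18 FPKM in untreated 14, and was listed at 0 in untreated 13 and 15.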

How the data were processed

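Per the labels' protocols, Trizol was used to obtain total RNA from whole brown fat, and libraries followed Illumina's total RNA procedure. The authors deposited 1 table per sample, with FPKM for 45320 Ensembl genes, per the file headers. The submitters' processing notes name CASAVA 1.7 and GRCm38, and the aligner, quantifier, annotation and strand setting are not given in the sources used here. Read totals were unknown. Steps between low values put the depth of each library at 0.811 to 1.01 of that of untreated 13. The most abundant genes, mitochondrial ones included, can shift FPKM of all others.

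GENCODE M21 (GRCm38) supplied symbols and positions for 44481 identifiers. The 13527 genes that averaged 1 FPKM or more over the 5 libraries were compared on log2(FPKM + 0.5) with limma 3.58.1 in R 4.3.3 (empirical Bayes with a variance trend, two-sided, Benjamini-Hochberg over all tested genes, threshold 0.05). Fold changes are treated minus untreated on that scale and understate the change of low genes. The fit was tested on simulated data with noise drawn independently for each gene. That simulation held no shared differences between libraries, such as muscle content, so it does not show how the fit behaves with them. Tables and figures used Python 3.11.15, numpy 2.4.6, pandas 2.3.3 and matplotlib 3.10.9.

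Members, gene lists and alternatives were chosen with earlier results of these data known. Named were all members and 3 other adrenergic receptors, in each pathway list the most abundant gene and that of smallest p, the 3 genes most like Adrb3, Ckm and Ucp1. Adcy2, Prkar1a, Prkar2a, Gnal, Pde4b, Th, Pnmt, Gm20721, Cenpo, Dbh, Myh4 and Slc2a4 were named after their values were seen. So were Cidea, Fabp3, Adipoq and Pparg. Alternatives covered pseudocount, filter, scaling, variance model, sample weights, identical tables, gene class and each library left out. No sample was left out, and some genes that the lists or the naming rule held are not reported here.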

Additional observations from a re-analysis of the deposited data

How the results depend on the processing

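The count of members passing stayed at 0 under all alternatives run. Over all genes, 6 passed in limma (125 at an unadjusted p under 0.05), against 2 with a pseudocount of 0.1, 10 with array weights, and 0 without a filter on low values, with adipocyte centring or with protein-coding genes alone (522, 33 and 82 at an unadjusted p under 0.05). With 1 library left out the count ran from 0 to 158, the 158 without untreated 14, and the count of pathway genes passing from 0 to 1. The 1 gene was Pde4b. Of 126 member values under 18 alternatives, 109 kept their direction and 17 reversed, all with an adjusted p above 0.05. Alternatives of filter, variance model and gene class leave each log2 difference as it was, so their values could not reverse. The 109 therefore do not measure how stable the directions are. Array weights gave -0.54 for Adrb3, -0.21 for Adra1a, -0.092 for Adcy3, -0.22 for Gnas, -0.15 for Prkar2b and -0.19 for Pde3b. Median centring gave -0.053 and -0.072, and adipocyte centring -0.27 and -0.29, for Adrb3 and Gnas. With 1 library left out the log2 differences ran from -0.46 to 0.50 for Adrb3, -0.35 to 1.14 for Adra1a, -0.19 to 1.16 for Adcy3, -0.30 to 0.31 for Gnas (-0.23 without treated 33/35), -0.21 to 0.96 for Prkar2b and -0.23 to 0.65 for Pde3b. The cause was not tested. With the identical tables counted as 2 samples the mean log2 ratio of Adrb3 to Adrb1 was 3.80 (exact sign-flip p = 0.0312). Leaving libraries out of the order of receptors was an alternative added after seeing the data. The number of separated neighbours was 3 with all libraries, 4 without untreated 14 and 3 without any other library. A given pair is more easily separated with fewer libraries, so this count cannot show that the order is stable. No paired analysis was possible because the groups share no replicate numbers. Depth in reads was unknown, so the precision of Adra1b, Adra2a, Adra2b and Adra2c, all under 1 FPKM, could not be given.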

Other observations

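The order of the muscle markers (untreated 14, then treated 17, treated 33/35, and untreated 13 and 15 lowest) was no more common in the pathway than elsewhere. Of 95 tested pathway genes 9 had that order (9.47%) and 9 its reverse (9.47%), where 12.9% and 10.8% of all tested genes did. The 3 examples that follow were chosen after their values were seen. Adcy2, an adenylyl cyclase, measured 4.50 and 1.96 FPKM in treated 17 and 33/35, and 0.110, 13.6 and 0.125 FPKM in untreated 13, 14 and 15. Pnmt, the enzyme that turns noradrenaline into adrenaline, measured 0.489 and 0.215 FPKM in the treated libraries, and 5.10 FPKM in untreated 14, and was listed at 0 in untreated 13 and 15. Pde4b, a cAMP phosphodiesterase, measured 12.6 and 9.23 FPKM in treated 17 and 33/35, and 2.92, 22.7 and 2.48 FPKM in untreated 13, 14 and 15. Its log2 difference was 0.87 (SE 1.00, limma adjusted p = 1), and without untreated 14 it was 1.82 (SE 0.20, limma adjusted p = 0.0429), where Ckm had 8.46 (limma adjusted p = 0.0129). Of the members, Adrb3 and Prkar2b had the reverse order.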
